A study of Mus musculus with 3 samples.

Results

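The messenger RNA of 10 receptor genes of innate immunity was followed in cells of the mouse meninges: the C-type lectins Clec4d, Clec4e and Clec4n, the formyl-peptide receptors Fpr1 and Fpr2, the receptor Trem1, the Toll-like receptors Tlr2, Tlr4 and Tlr13, and the co-receptor Cd14. They were chosen by symbol, and all 10 were among the 27998 genes of the count table. Meninges were collected from male C57BL/6J mice aged 10 to 12 weeks and pooled, 4 mice to a library. HC replicate 1 and HC replicate 2 came from 8 unstressed mice kept in their home cages (HC), and CSD replicate 1 came from 4 mice after 14 days of chronic social defeat (CSD), in which a mouse is repeatedly attacked by a larger aggressor. The defeated mice had been picked as susceptible by their behavior, and the sorted live nucleated cells of each pool were run in a lane of their own on 1 droplet chip. With 1 CSD library, the effect of stress cannot be told apart from that of this pool, its selection and its lane.

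These receptors stand at the start of antimicrobial responses. Clec4d (also called MCL), Clec4e (Mincle) and Clec4n (Dectin-2) bind glycolipids or sugars of fungi and mycobacteria and signal through an adaptor that carries an ITAM, a motif that recruits the kinase Syk. Fpr1 and Fpr2 are G protein-coupled receptors that guide neutrophils toward formylated peptides of bacteria and of mitochondria, and Trem1 amplifies inflammatory signals through the ITAM adaptor Tyrobp. Tlr2 senses bacterial lipoproteins, Tlr4 senses lipopolysaccharide, Tlr13 senses bacterial ribosomal RNA, and Cd14 hands lipopolysaccharide and lipoproteins to Tlr4 and Tlr2.

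Several of the genes are neighbors in the mouse genome (GRCm38, RefSeq positions). Clec4n lies on chromosome 6 from 123229843 to 123247024, Clec4d from 123262107 to 123275268 and Clec4e from 123281789 to 123289871, with 15082 bases between Clec4n and Clec4d and 6520 between Clec4d and Clec4e. Fpr1 (17876471 to 17883939) and Fpr2 (17887824 to 17893952) are separated by 3884 bases on chromosome 17. Trem1 is also on chromosome 17 (48232713 to 48246927), Tlr2 is on chromosome 3 (83836272 to 83841824), Tlr4 on chromosome 4 (66827551 to 66846581) and Tlr13 on chromosome X (106143275 to 106160493). The 250 bases before the starts of Clec4d and Clec4e are printed because these neighbors had the most similar pattern among the lectins. They come from RefSeq (GRCm38.p6), read 5′ to 3′ on the strand of the gene, and the capitals mark GAGGAA, the core that the myeloid factor PU.1 binds, on either strand (read on the opposite strand it appears as TTCCTC). This motif was chosen after the sequences had been seen.
Clec4d, chr6:123261857-123262106, plus strand: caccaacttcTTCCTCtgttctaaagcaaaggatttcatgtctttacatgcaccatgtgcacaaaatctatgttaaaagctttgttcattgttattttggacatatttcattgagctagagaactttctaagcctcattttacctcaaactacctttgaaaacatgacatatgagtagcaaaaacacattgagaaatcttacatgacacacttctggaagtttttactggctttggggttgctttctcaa
Clec4e, chr6:123289872-123290121, minus strand: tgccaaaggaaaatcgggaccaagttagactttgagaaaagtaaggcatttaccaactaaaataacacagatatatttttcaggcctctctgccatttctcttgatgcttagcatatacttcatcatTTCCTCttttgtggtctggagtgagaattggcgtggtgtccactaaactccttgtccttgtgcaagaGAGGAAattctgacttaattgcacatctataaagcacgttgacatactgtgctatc
The Clec4d window held 1 match, on the opposite strand, and the Clec4e window held 1 on each strand. Among the 7 receptor genes with such a window (all but Clec4n, Tlr4 and Cd14), 5 held the motif on either strand, as did 23.3% of all 32851 windows of this length. Fpr2 had 1 match on the opposite strand, Trem1 and Tlr13 had 1 each on their own strand, and Fpr1 and Tlr2 had none. The Tlr2 window (83841609 to 83841858) lay mostly inside the span of the gene given above. The Trem1 window (48232489 to 48232738) ran a little way into its gene. A match of letters does not show a bound site.

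The libraries held 9891861, 8814690 and 10206236 unique molecular identifiers (UMIs, tags that count molecules rather than reads) in HC replicates 1 and 2 and the CSD library. The 7057 cells kept were 2599, 1702 and 2756, with medians of 2503, 2212 and 2400.5 UMIs. Droplets of at most 100 UMIs, which hold RNA free in the suspension, carried 7.87%, 24.1% and 5.48% of the UMIs, so HC replicate 2 stood apart. The libraries shared 8, 6 and 3 cell barcodes in pairs. Cells were clustered without the 10 receptor genes and 86 pathway genes, so the levels compared here did not place the cells. Clusters were named from marker lists, and the mature and immature neutrophil-like clusters together are called neutrophil-like. They numbered 778, 543 and 1313 cells, against 111, 91 and 128 monocyte-like cells and 317, 57 and 125 border macrophage-like cells. Unless stated, 3 values in a row are those of the home-cage libraries and then of the CSD library, in that order. Levels are given as CPM, the UMIs of a gene scaled to the total UMIs of its class in 1 library, and errors are SDs over the 3 libraries unless stated. In a summed level, fewer cells with a transcript and fewer transcripts per cell cannot be told apart.

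The receptor genes differed in the cell class that held most of them. Clec4d, Clec4e, Fpr1, Fpr2 and Trem1 were highest in neutrophil-like cells, whereas Clec4n, Tlr2 and Cd14 were highest in border macrophage-like cells. Tlr13 was highest in mature neutrophil-like cells, with monocyte-like, microglia-like and border macrophage-like cells close behind. Tlr4, with 86 UMIs in all cells together, was too sparse to order the classes. The order was taken over the 14 named classes that had at least 20 cells in every library. It leaves out 194 cells of clusters that got no name, which averaged 57.2 ± 10.5 CPM of Clec4d, 93.2 ± 37.5 CPM of Clec4e, 35.0 ± 13.7 CPM of Trem1 and 17.3 ± 12.4 CPM of Fpr1. The Clec4d values of these cells overlapped those of immature neutrophil-like cells, and their Clec4e values overlapped those of both immature neutrophil-like and monocyte-like cells.

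**Figure D1:**
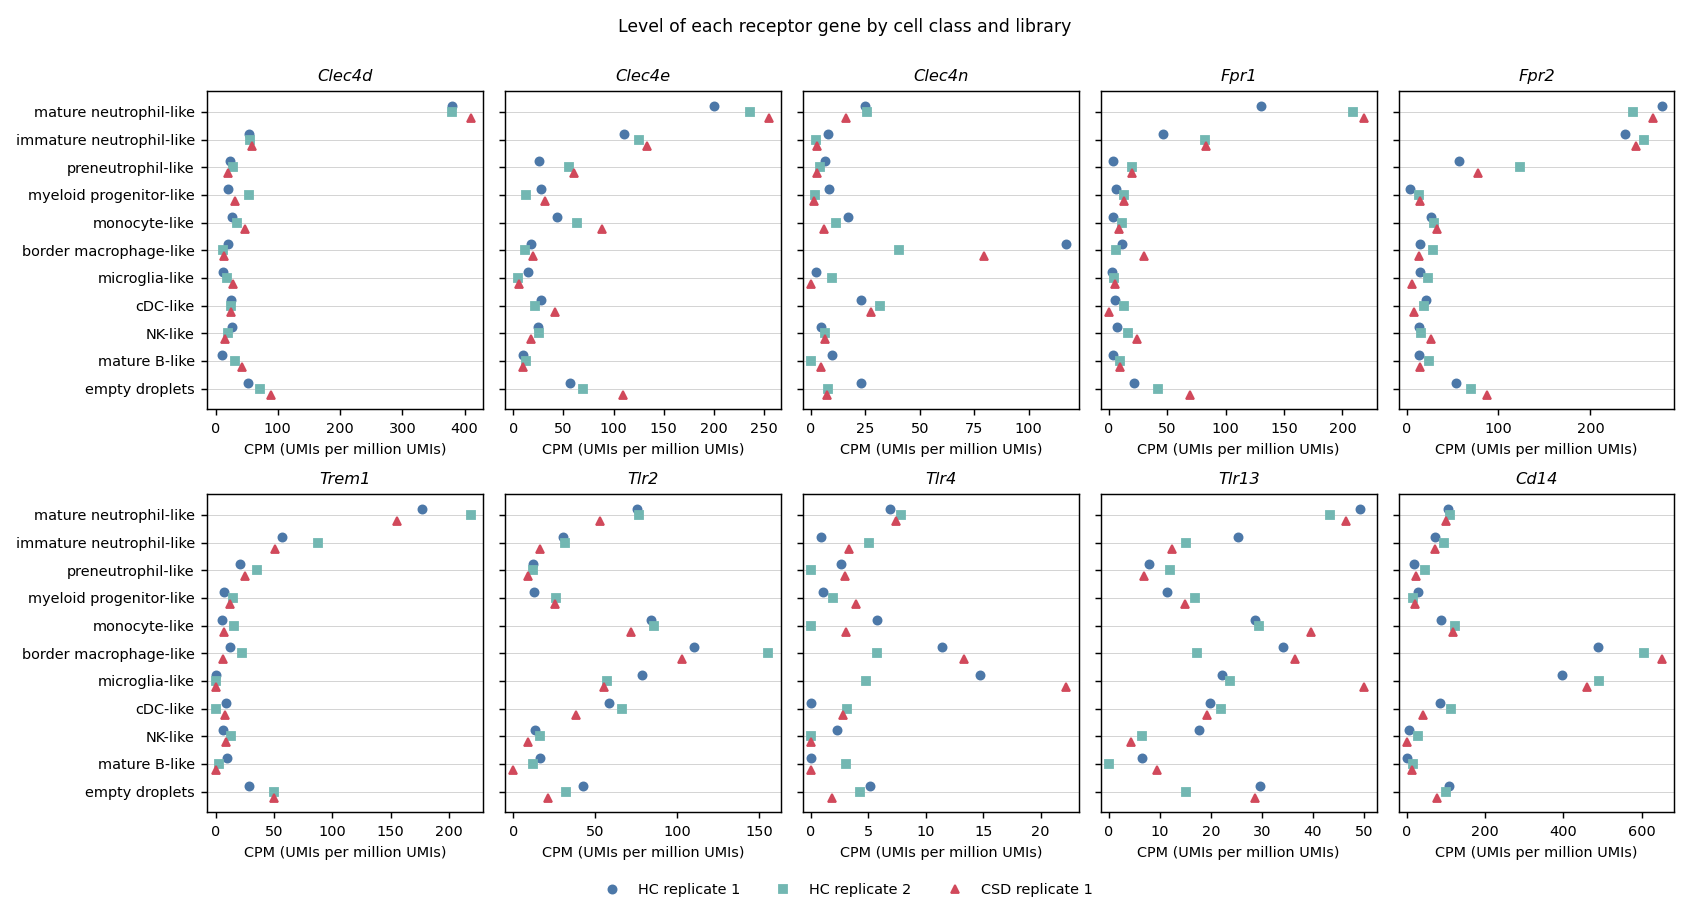
Level of each receptor gene (x axis, CPM on a linear scale that differs between panels) in 10 cell classes and in empty droplets (rows), with 1 point per library: circles for HC replicate 1, squares for HC replicate 2 and triangles for CSD replicate 1. Clec4d lies between 379.9 and 410.1 in mature neutrophil-like cells and at or below 58.2 in the other cell classes drawn, whereas Cd14 lies between 396 and 651 in microglia-like and border macrophage-like cells.

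Clec4d had the largest share of its UMIs in mature neutrophil-like cells of the 3 lectins. It reached 380.3, 379.9 and 410.1 CPM there. Of the named classes, immature neutrophil-like cells were next with 54.0, 55.1 and 58.2 CPM, far below every mature value. Monocyte-like cells followed with 26.7, 33.9 and 47.2 CPM, below every immature value, and from there each class overlapped its neighbor in the order. Of the 1683 Clec4d UMIs in all cells, 61.0% were in mature neutrophil-like cells. The free RNA has to be kept in view at the low end: the empty droplets carried 51.4, 71.0 and 89.4 CPM of Clec4d, near the level of immature cells, and mature B-like cells, which should lack it, carried 9.8, 30.7 and 42.4 CPM.

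Clec4e had the same 3 classes at the head of its order. Its levels were 199.7, 236 and 254 CPM in mature neutrophil-like cells. They were 111, 125 and 134 CPM in immature neutrophil-like cells and 43.8, 63.2 and 88.3 CPM in monocyte-like cells, and these 3 classes did not overlap. Preneutrophil-like cells, the dividing precursors, came next at 47.0 ± 19.1 CPM and overlapped the monocyte-like cells. Mature B-like cells held 9.4 to 12.3 CPM.

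Clec4n departed from its 2 neighbors on the chromosome. It was highest in border macrophage-like cells, the resident macrophages of the meninges, at 117, 40.3 and 79.7 CPM, above conventional dendritic cell (cDC)-like cells at 23.1, 31.5 and 27.5 CPM. Mature neutrophil-like cells had 24.6, 25.6 and 16.2 CPM and overlapped the cDC-like cells. Of its 340 UMIs, 42.4% were in border macrophage-like cells. Of the 2 border macrophage-like clusters, one held 229, 64.4 and 211 CPM of Clec4n, where the value of HC replicate 2 rests on 2 UMIs in 10 cells, and the other held 32.8, 35.1 and 39.1 CPM. The first had 143, 10 and 37 of the 317, 57 and 125 cells, and the part of this makeup in the spread of Clec4n was not tested.

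Fpr1 and Fpr2 were both highest in neutrophil-like cells but differed between the mature and immature ones. Fpr1 had 129.96, 209 and 218 CPM in mature neutrophil-like cells and 46.1, 82.7 and 83.3 CPM in immature ones, with HC replicate 1 the lowest in both. The other classes of the 14 averaged 15.7 CPM or less. Fpr2 had 278, 246 and 268 CPM in mature cells and 238, 258 and 249 CPM in immature cells, and these ranges overlapped. Preneutrophil-like cells already had 56.9, 123 and 77.8 CPM of Fpr2, above the monocyte-like cells at 26.7, 29.4 and 33.5 CPM. The preneutrophil-like cells of HC replicate 2, with the highest value, had a median of 863 UMIs, against 10528 in HC replicate 1 and 10864 in CSD replicate 1. The immature cells hold more UMIs per cell, and 47.0% of the 2139 Fpr2 UMIs were in them, whereas 51.7% of the 961 Fpr1 UMIs were in mature cells. Fpr1 and Fpr2 have close copies in the genome, so reads that fit several copies could have been missed.

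Trem1 resembled Fpr1. Mature neutrophil-like cells had 176, 218 and 156 CPM and immature ones had 56.6, 87.7 and 50.7 CPM, with HC replicate 2 the highest in both. Preneutrophil-like cells came next at 27.4 ± 7.5 CPM. Microglia-like cells had 0 Trem1 UMIs in all 3 libraries.

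The Toll-like receptors were shared by neutrophils and mononuclear phagocytes. Tlr2 was highest in border macrophage-like cells at 110.0, 156 and 103 CPM, above every library of the monocyte-like cells at 83.8, 85.8 and 71.6 CPM. Mature neutrophil-like cells had 75.2, 76.8 and 53.1 CPM of Tlr2, overlapping the monocyte-like cells. Tlr13 had 49.2, 43.3 and 46.5 CPM in mature neutrophil-like cells, above monocyte-like cells at 28.6, 29.4 and 39.6 CPM, but the microglia-like cells of the CSD library had 49.99 CPM and monocyte-like, microglia-like and border macrophage-like cells overlapped one another. Tlr4 averaged 13.9 ± 8.8 CPM in microglia-like cells, 10.2 ± 3.9 CPM in border macrophage-like cells and 7.36 ± 0.52 CPM in mature neutrophil-like cells, and every class overlapped the next in its order.

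Cd14 belonged chiefly to resident macrophages. Border macrophage-like cells had 488, 605 and 651 CPM and microglia-like cells had 396, 490.0 and 461 CPM, which overlapped. Monocyte-like cells (87.6, 124 and 119 CPM) and mature neutrophil-like cells (107, 110.2 and 99.6 CPM) came next, below every microglia-like value, and overlapped each other. Neutrophil-like cells are abundant, however, and immature ones alone gave 13.8% of the 2248 Cd14 UMIs, against 34.3% from border macrophage-like cells. The empty droplets carried 109, 100.6 and 78.7 CPM of Cd14, a range that held all 3 values of mature and immature neutrophil-like cells combined (85.1, 102 and 82.8 CPM).

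Neutrophil-like cells were tested against monocyte-like cells on UMIs summed per library and class with the library as a block (edgeR's quasi-likelihood test, two-sided, Benjamini-Hochberg adjustment over all genes tested). All 10 receptor genes were tested, and 6 were called at an adjusted p under 0.05, all higher in neutrophil-like cells, where 43.8% of the 8935 genes were called, 23.7% as higher and 20.1% as lower. Fpr1 was higher by a log2 fold change of 4.6 ± 0.25 (SE), Trem1 by 4.27 ± 0.25 and Fpr2 by 3.82 ± 0.17. Clec4d was higher by 3.10 ± 0.17 and Clec4e by 2.08 ± 0.16, and the libraries of the classes did not overlap for any of these 5 genes. The share of all genes without such overlap was not counted. In monocyte-like cells Fpr1 had 13 UMIs and Trem1 had 15, under the 20 UMIs that a gene needed over both classes to be tested. Both thus passed that filter only through the neutrophil-like cells, and their calls are not used as support. Cd14 was called as higher, with a log2 fold change of 0.43 ± 0.15, but its CPM overlapped and averaged 89.9 in neutrophil-like and 110.2 in monocyte-like cells, and on library totals without TMM scaling its value was -0.31 and was not called. TMM, edgeR's scaling to the bulk of the genes, set the median of all genes at 0.07, where the library totals set it at -0.67. The calls over all genes were 2122 higher and 1792 lower with TMM, and 833 and 3908 without.

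The other 4 receptor genes did not pass. Clec4n had a log2 fold change of 0.72 ± 0.37, Tlr4 of 1.31 ± 0.68 and Tlr2 of -0.22 ± 0.18. Tlr13 had 0.52 ± 0.24, which became -0.22 on library totals. Without TMM scaling Tlr2 was called as lower in neutrophil-like cells, at -0.96. The median of the 10 genes was 1.69 with TMM and 0.95 without.

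Against border macrophage-like cells, 9 of the 10 genes were called, 6 as higher and 3 as lower in neutrophil-like cells, where 42.9% of the 9132 genes were called, 22.7% as higher and 20.2% as lower. Fpr2 was higher by a log2 fold change of 4.70 ± 0.23, Clec4d by 4.19 ± 0.23, Clec4e by 3.93 ± 0.23, Trem1 by 3.80 ± 0.26 and Fpr1 by 3.49 ± 0.26. Trem1 had 18 UMIs in border macrophage-like cells and passed the filter of 20 UMIs only through the neutrophil-like cells. Its call is thus not used as support. Clec4n was lower, with -2.15 ± 0.27, Cd14 with -1.94 ± 0.14 and Tlr2 with -0.72 ± 0.19. These 8 genes, Trem1 among them, did not overlap between the classes and were called in the same direction on library totals. How many of all genes did not overlap between these classes was not counted. The sixth gene called as higher, Tlr13, had 0.68 ± 0.28 and an adjusted p of 0.0471 in edgeR, but its mean CPM was 28.8 in neutrophil-like and 29.4 in border macrophage-like cells, and its value was -0.08 on library totals. Tlr4 had -0.60 ± 0.53 and was called only on library totals, at -1.36. The median of all genes was 0.04 with TMM and -0.72 without, and the calls were 2075 higher and 1843 lower with TMM and 953 and 3818 without.

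**Figure D2:**
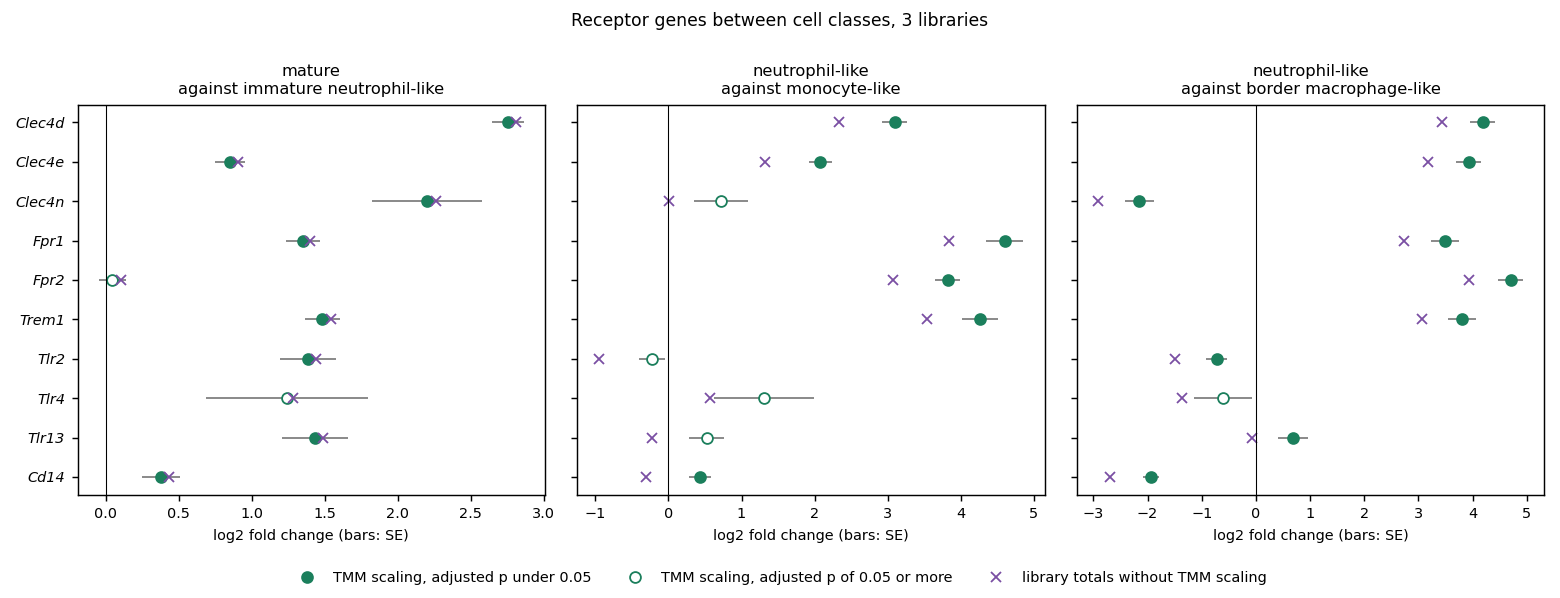
Log2 fold change of each receptor gene (x axis, 0 marked by a line) in 3 comparisons of cell classes over 3 libraries: circles are TMM-scaled values with SE bars, filled where the adjusted p is under 0.05, and crosses are values on library totals. Mature against immature neutrophil-like cells barely move with the scaling, whereas in the other 2 panels every cross lies to the left of its circle and the crosses of Tlr13 in both panels and of Cd14 against monocyte-like cells fall below 0.

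Within the neutrophil-like cells, mature cells were compared with immature cells of the same library. Mature here means clusters with Csf3r, Cxcr2 and Retnlg, and immature means clusters with Camp, Ngp and Ltf, which encode granule proteins made before release from marrow. Of the receptor genes, 8 of 10 were called, all as higher, where 23.4% of the 7905 genes were called, 13.6% as higher and 9.82% as lower. As a share of the UMIs, Clec4d rose by 2.76 ± 0.11 (log2 fold change, SE), Clec4n by 2.20 ± 0.38, Trem1 by 1.48 ± 0.12 and Tlr13 by 1.43 ± 0.23. Clec4n had 17 UMIs in immature cells and passed the filter of 20 UMIs only through the mature cells, so its call is not used as support. Tlr2 rose by 1.38 ± 0.19, Fpr1 by 1.35 ± 0.12, Clec4e by 0.85 ± 0.10 and Cd14 by 0.38 ± 0.13. The libraries of mature and immature cells did not overlap for any of these 8 genes, Clec4n among them, and all 8 were called on library totals as well. How many of all genes did not overlap between the stages was not counted. Tlr4 did not overlap either but rests on 31 UMIs, and its 1.24 ± 0.55 did not pass (edgeR adjusted p = 0.0962). Fpr2 was the exception, with 0.04 ± 0.09 and overlapping libraries. The median of the 10 genes was 1.37, beside -0.01 for all genes tested. These values compare shares of UMIs, and the median depth was 1413 UMIs per mature and 3650 per immature cell. Clec4e had 611 UMIs in 1648 mature cells and 509 in 986 immature cells, and Cd14 had 269 and 311. Counted per cell, these 2 genes were thus lower in mature cells. Clec4d (1027 and 229 UMIs) and Clec4n (53 and 17) were higher per cell. Fpr1 (497 and 295), Trem1 (451 and 242), Tlr2 (166 and 95) and Tlr13 (121 and 67) differed little per cell. Per cell, Tlr2 was lower in mature cells in both HC libraries but not in the CSD library. In HC replicate 1 it had 55 UMIs in 496 mature and 35 in 282 immature cells. Fpr2, level as a share of the UMIs, was lower per mature cell, with 691 and 1005 UMIs. Border macrophage markers, 11 genes, summed to 3940, 1671 and 1115 CPM in mature and to 4759, 1784 and 1161 CPM in immature neutrophil-like cells. Of these markers 0, 1 and 3 were at 0 in the mature cells, and their part in the levels of Clec4n, Tlr2 and Cd14 was not tested.

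Finer clusters (the alternative clustering at resolution 2) split the stages further, and their levels are given as a description. From the immature cluster with high Ltf and Camp, Clec4d went from 31.7, 41.4 and 41.9 CPM to 91.7, 82.4 and 93.2 CPM in the immature cluster with high Mmp8 and Mmp9. It then had 313, 349.9 and 383 CPM in the mature cluster with high Retnlg and 483, 445 and 486 CPM in the mature cluster with high Il1b, so no step overlapped the one before it. Clec4n was highest in the last, with 51.7, 49.5 and 42.0 CPM in the Il1b cluster against 6.8, 14.5 and 6.2 CPM in the Retnlg cluster. Tlr2 went up between these 2 mature clusters as well, from 47.6, 69.4 and 39.4 CPM to 117, 92.8 and 89.3 CPM.

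The formyl-peptide receptors ran the other way at the last step. Fpr1 had 143, 249 and 239 CPM in the Retnlg cluster and 110.3, 124 and 163 CPM in the Il1b cluster. In each library the Il1b cluster was lower, although the ranges over libraries overlapped. Fpr2 was also lower there in every library, with 324, 260.2 and 276 CPM in the Retnlg cluster and 207, 210.3 and 247 CPM in the Il1b cluster, and these ranges did not overlap. Trem1 did not share this turn, since it had 156, 185 and 132 CPM in the Retnlg cluster and 207, 284 and 215 CPM in the Il1b cluster. These clusters also differ in depth, with medians of 998, 939.5 and 1020 UMIs per cell in the Il1b cluster against 1968, 1798 and 2061 in the Retnlg cluster, and no test was run between them.

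**Figure D3:**
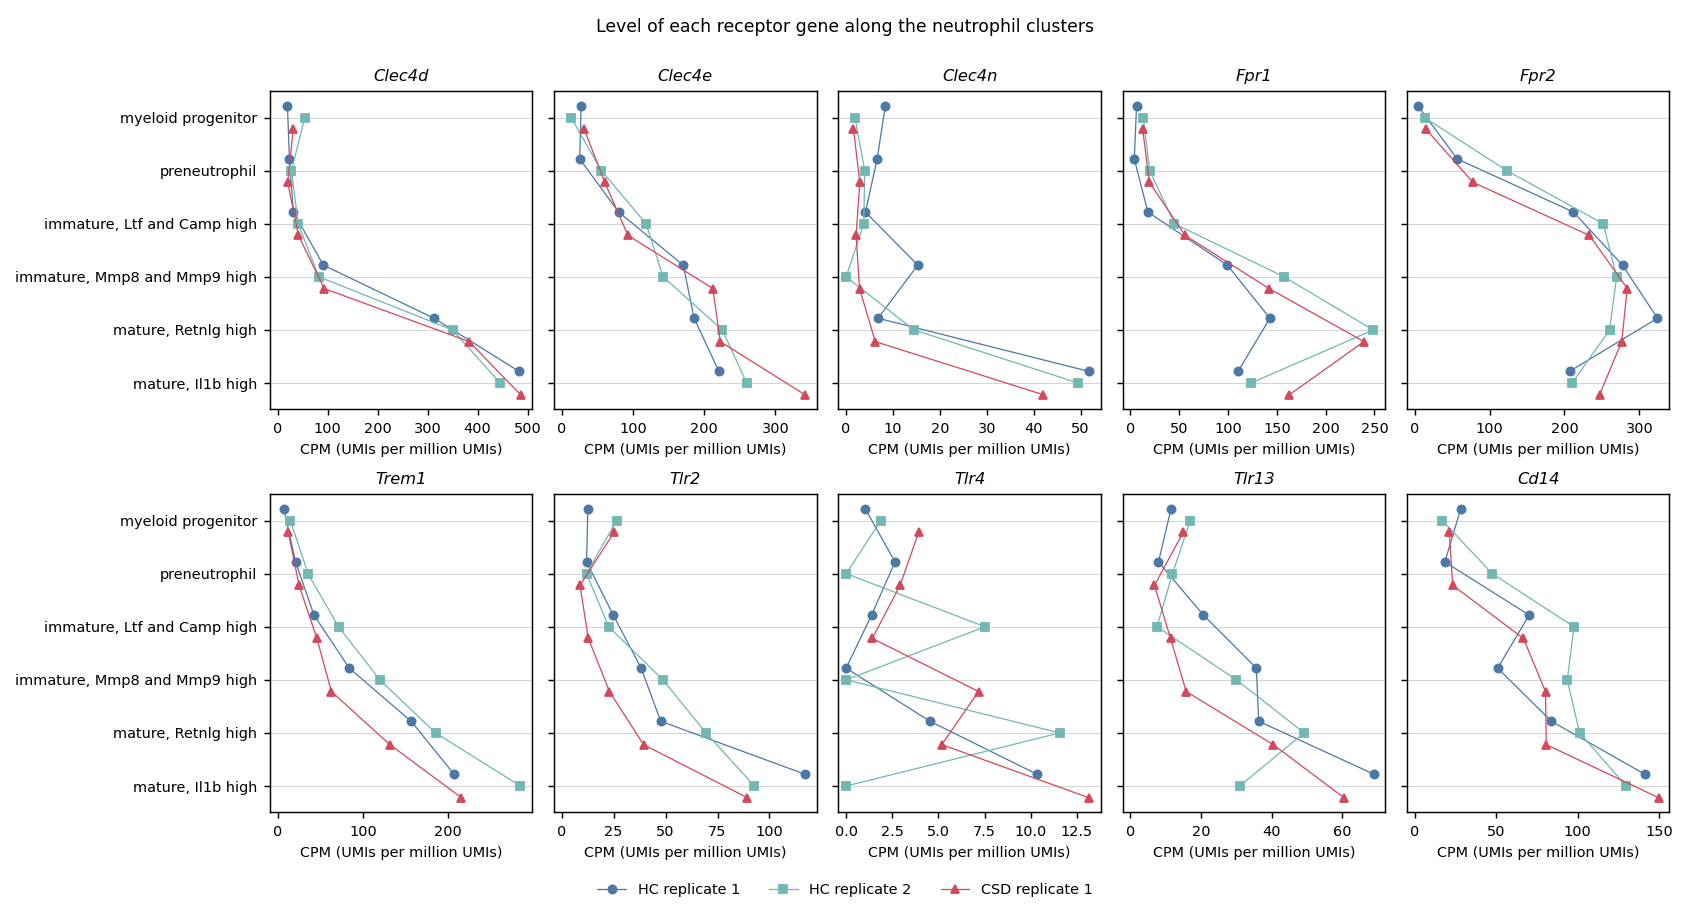
Level of each receptor gene (x axis, CPM on a linear scale that differs between panels) along the clusters of the neutrophil lineage, from myeloid progenitor-like cells at the top to mature cells with high Il1b at the bottom, with 1 line per library. Clec4d climbs at every step from the Ltf and Camp cluster to 445 to 486 CPM, Fpr1 and Fpr2 are lower in the last cluster than in the one before it, and Clec4n is highest in the last cluster.

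Shares of single cells with at least 1 UMI were taken with each cell thinned at random to 500 UMIs, which puts deep and shallow cells on a par. Of the mature neutrophil-like cells, 19.8% (HC replicate 1; exact Clopper-Pearson 95% interval 16.3 to 23.5), 17.8% (HC replicate 2; 13.9 to 22.3) and 20.9% (CSD replicate 1; 18.1 to 23.8) held Clec4d. In mature B-like cells thinned likewise, which should lack Clec4d, the shares were 1.09%, 1.63% and 2.70%. Free RNA and doublets were not told apart in them. The median depths before thinning were 1280, 1325 and 1538 UMIs in the mature neutrophil-like and 1592.5, 1664.5 and 1369 UMIs in the mature B-like cells. Without thinning, a mean of 34.4% of the neutrophil-like cells held Clec4d, against 13.4% after it. The intervals cover counting error only.

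Clec4e was held by 10.3%, 11.6% and 13.5% of the mature neutrophil-like cells, with 0.543%, 0% and 0.676% of the mature B-like cells. The 0% stands for 0 of 184 mature B-like cells in HC replicate 2, and a floor of 3 cells, a different limit from the exact interval, allows a share of up to 1.63% of cells with a UMI at this thinned depth. Fpr1 was held by 6.25%, 7.12% and 7.49% of the mature neutrophil-like cells and by none of the mature B-like cells, Fpr2 by 11.7%, 10.98% and 11.2%, and Trem1 by 7.46%, 9.50% and 7.49%. For each of these genes the 3 intervals of the mature cells overlapped one another.

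At least 1 of the 10 genes was seen in 52.4%, 52.8% and 53.7% of thinned mature neutrophil-like cells and in 25.9%, 30.1% and 28.9% of immature ones. Border macrophage-like cells had 32.2%, 38.6% and 36.8%, and monocyte-like cells 16.2%, 17.6% and 15.6%. In mature B-like cells the share was 5.98%, 5.98% and 6.08%, and in NK-like cells 2.31%, 9.01% and 7.65%. At least 2 of the 10 genes were seen in 15.5%, 15.1% and 15.2% of the mature neutrophil-like cells. Without thinning, at least 1 of the 10 genes was seen in 83.1%, 84.3% and 87.85% of mature neutrophil-like cells. The unthinned immature cells had 89.0%, 86.4% and 88.8%, so the higher share of mature cells held at equal depth only.

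**Figure D4:**
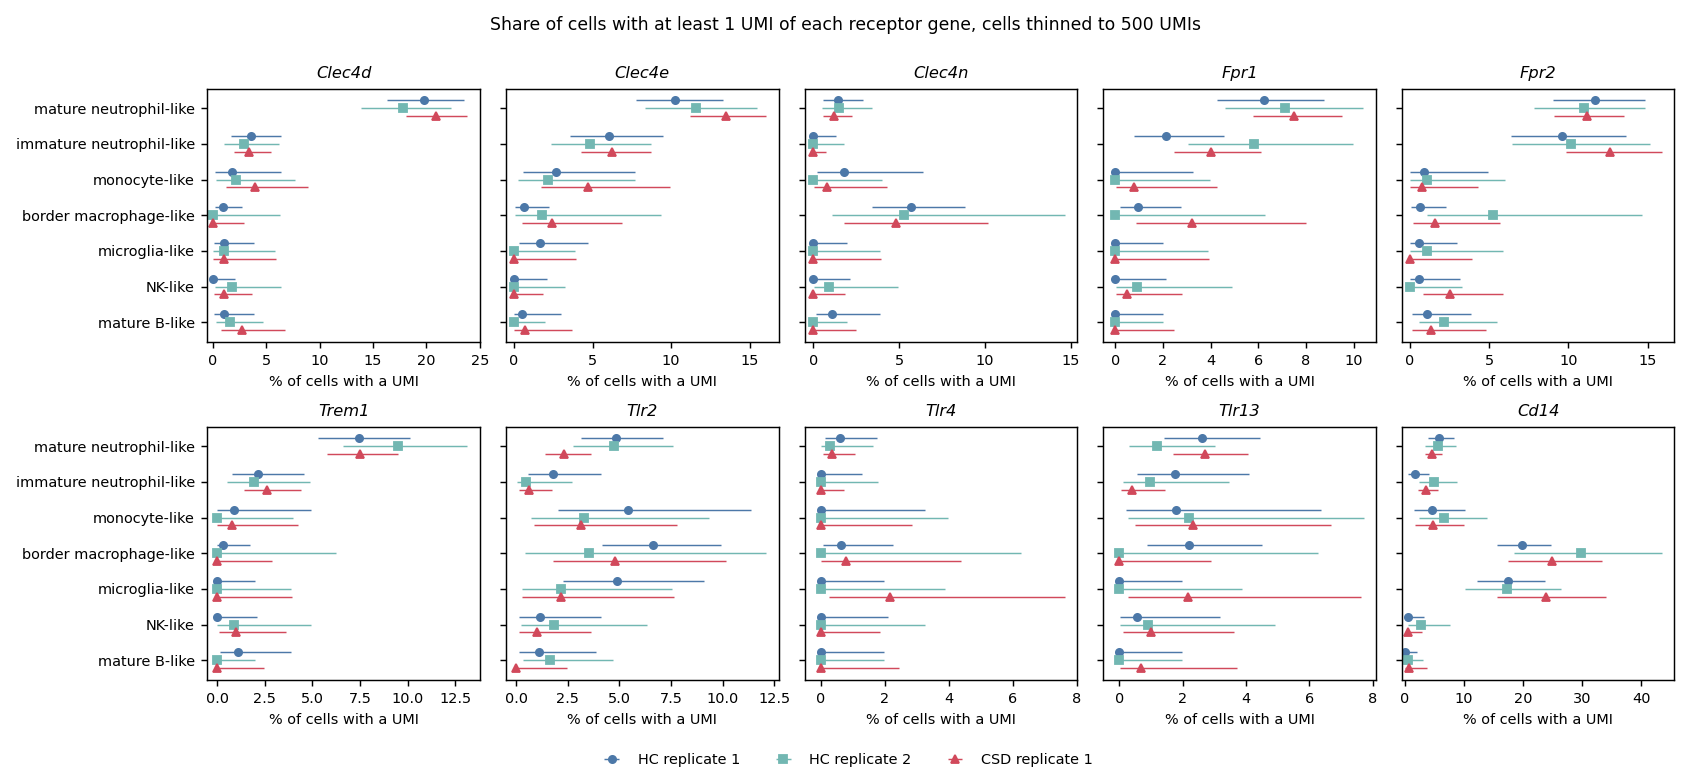
Share of cells with at least 1 UMI of each receptor gene (x axis, percent, on a scale that differs between panels) after thinning to 500 UMIs, in 7 cell classes, with 1 point per library and exact 95% intervals as bars. The 3 libraries overlap in mature neutrophil-like cells for every gene, and for Clec4d these cells lie between 17.8% and 20.9% while mature B-like cells lie between 1.09% and 2.70%.

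In neutrophil-like cells the CSD library was compared with the 2 HC libraries, again with edgeR on summed UMIs. The spread comes from the 2 HC libraries, the lone CSD library is assumed to vary like them, and the p-values measure only the spread between these pools. With 1 residual degree of freedom, edgeR took this spread mostly from all genes together. The gap of a single gene between the HC libraries thus weighs little in its own p-value. Fpr1 alone of the 10 genes was called, where 3.24% of the 7905 genes were called, 1.23% as higher and 2.01% as lower in CSD. Fpr1 had 78.7, 132 and 136 CPM, so the CSD library stood just above HC replicate 2 and both stood well above HC replicate 1. Its log2 fold change was 0.61 ± 0.19 (SE), with an adjusted p of 0.0396. Without HC replicate 1 it was 0.27 and without HC replicate 2 it was 0.94, values that carry no test. The call was lost in DESeq2 (0.61, adjusted p = 1), when marked doublets were left out (0.60, adjusted p = 0.657), with the empty-droplet profile subtracted (0.36, adjusted p = 0.908) and on library totals (0.38, adjusted p = 0.466). It was also lost with genes seen in more than 15% of cells (0.47, adjusted p = 0.38) and with cells of at least 1000 UMIs (0.58, adjusted p = 0.066). Fpr1 in empty droplets also ran from 21.8 over 41.8 to 69.7 CPM in the same order of libraries, and its part in the result was not tested.

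The other receptor genes did not pass in neutrophil-like cells. Clec4e had 145, 168 and 181 CPM, with a log2 fold change of 0.42 ± 0.18 and an adjusted p of 0.245. Clec4d had 181, 181 and 196 CPM (0.32 ± 0.18), and Fpr2 had 253, 253 and 256 CPM (0.23 ± 0.17). Tlr2 had 47.9, 49.0 and 30.9 CPM, with -0.44 ± 0.25 and an adjusted p of 0.488.

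Trem1 had 103, 138 and 91.7 CPM (-0.17 ± 0.19) and Clec4n had 14.4, 11.5 and 8.1 CPM (-0.49 ± 0.43). Tlr13 had 34.6, 26.0 and 25.7 CPM with -0.05 ± 0.28, and Tlr4 had 3.2, 6.1 and 4.9 CPM with 0.35 ± 0.61. Cd14 had 85.1, 102 and 82.8 CPM with a fold change of 0.05 ± 0.20 that was -0.17 on library totals. By CPM the CSD library lay above both HC libraries for 4 genes (Clec4d, Clec4e, Fpr1 and Fpr2) and below both for 5, whereas 15.9% of all genes lay above and 53.9% below. The median of the 10 genes was 0.14 with TMM scaling and -0.08 without, beside -0.02 and -0.24 for all genes. All genes together gave 97 higher and 159 lower calls with TMM and 22 and 202 without.

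Fpr1 was not called within either stage. Its log2 fold change was 0.58 in mature neutrophil-like cells alone (edgeR adjusted p = 0.215) and 0.58 in immature ones (adjusted p = 0.762). Tlr2 had -0.33 in mature and -0.73 in immature cells, neither of them called. The mature cluster with high Il1b showed Clec4e at 221, 259.7 and 342 CPM, the largest excess of CSD over HC replicate 2 in CPM among the receptor genes at that stage, chosen for mention after its values were seen.

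Monocyte-like cells had fewer cells, and Clec4n, Fpr1, Trem1 and Tlr4 had under 20 UMIs in them and were not tested. None of the 6 genes tested was called, where 0.0177% of the 5665 genes were called, that is 1 gene, Mgp, a matrix protein gene of fibroblasts, 0% as higher and 0.0177% as lower, and 368 genes had an unadjusted p under 0.05. DESeq2 called 2 genes over all and none of the 6. Clec4e had 43.8, 63.2 and 88.3 CPM, a log2 fold change of 0.76 ± 0.30 and an adjusted p of 0.731. Clec4d had 26.7, 33.9 and 47.2 CPM, with 0.67 ± 0.37. For these 2 lectins the CSD library was the highest, as it was in neutrophil-like cells, and it was also the highest in the empty droplets, at 89.4 CPM for Clec4d and 109 CPM for Clec4e. Tlr13 had 0.47 ± 0.38, Fpr2 0.28 ± 0.40, Cd14 0.20 ± 0.26 and Tlr2 -0.22 ± 0.26. Of the 6, the CSD library lay above both HC libraries for 4 and below both for 1, beside 31.4% and 36.5% of all genes. The median of the 6 was 0.38, beside -0.02 for all genes tested.

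**Figure D5:**
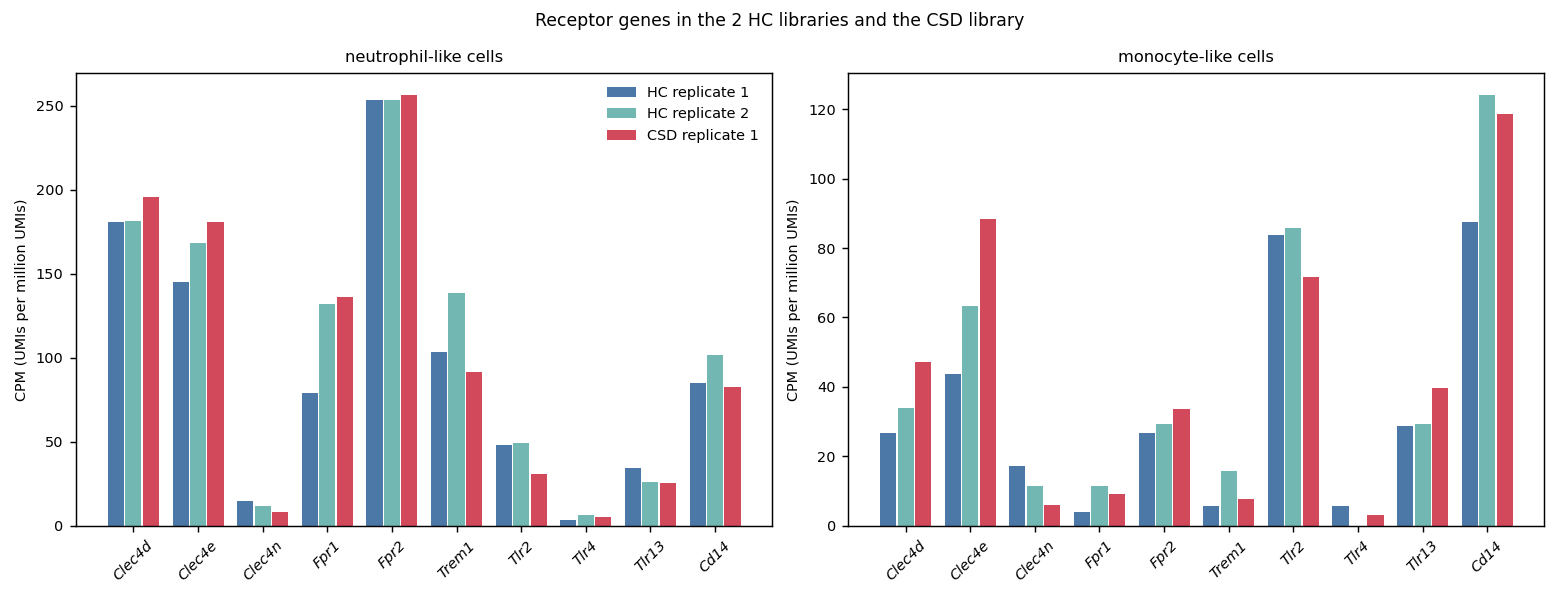
Level of each receptor gene (y axis, CPM from 0) in neutrophil-like cells (left) and monocyte-like cells (right), with 1 bar per library and no error bar, since each bar is 1 pool of 4 mice. In neutrophil-like cells Fpr1 is 136 in the CSD library and 132 in HC replicate 2, and in monocyte-like cells Clec4e runs from 43.8 over 63.2 to 88.3.

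The genes that act with these receptors were followed in 8 lists of 87 genes, 86 of which were in the count table. Between mature and immature neutrophil-like cells, 67 were tested, again as shares of the UMIs of a class. Of these, 15 were called as higher and 10 as lower in mature cells, where 13.6% and 9.82% of all genes were. Among the ITAM adaptors and kinases 5 of 10 rose, including Tyrobp, the partner of Trem1, by 0.89 ± 0.06, the Src kinase Lyn by 0.81 ± 0.13 and Bcl10 by 0.73 ± 0.11, and the list had a median of 0.41 beside -0.01 for all genes. Among the Toll-like receptor adaptors and signal genes 5 of 16 rose and none fell, among them the inhibitor Nfkbia by 0.97 ± 0.07, Nfkbiz by 0.90 ± 0.12 and the adaptor Myd88 by 0.59 ± 0.19, with a median of 0.36. The chaperones and co-receptors were divided. Ly96, which encodes the MD-2 subunit that Tlr4 needs to bind lipopolysaccharide, rose by 1.92 ± 0.29, whereas the lipopolysaccharide-binding protein gene Lbp (-2.74 ± 0.28) and the chaperone Hsp90b1 (-1.0 ± 0.15) fell, and the median of 7 was 0.01.

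Of the 10 cytosolic sensors and inflammasome genes tested, Nlrp3 rose by 2.92 ± 0.26, from a mean of 7.3 to 54.9 CPM, Nod1 fell by 1.27 on the log2 scale and 1 more fell, with a median of -0.02 that was 0.03 on library totals. The formyl-peptide receptor coupling genes had 3 higher, 2 lower and a median of 0.04 over 9, with the G protein subunit Gnai2 at 0.31 ± 0.07, Pik3cg at 0.61 ± 0.22 and Plcb2 at -1.30 ± 0.29. The other C-type lectins had no gene higher and 2 of 7 lower, Clec12a (-0.56 ± 0.10) and Clec4a2 (-0.42 ± 0.09), with a median of -0.03 that was 0.03 on library totals. Of the other Trem family and ligand genes 2 of 5 fell, among them Trem3 (-0.53 ± 0.08), with a median of -0.17. Of the other Toll-like receptors 3 of 9 were tested and none was called, with a median of 1.01.

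Between neutrophil-like and monocyte-like cells 71 of these genes were tested, and 29 were called as higher and 15 as lower with TMM scaling, against 13 and 32 on library totals. With TMM 23.7% of all genes were called as higher and 20.1% as lower. The direction held in both for the Trem family and ligand genes Pglyrp1 (3.69 ± 0.10), which encodes a peptidoglycan-binding ligand of Trem1, Trem3 (3.53 ± 0.14) and Treml2 (1.73 ± 0.24). Here 3 of 5 were called as higher and 1 as lower, with a median of 1.73 and of 0.96 on library totals. The chaperones and co-receptors had 1 of 7 higher and 5 lower, led by Ly86 (-2.86 ± 0.17), Hsp90b1 (-1.13 ± 0.13) and Unc93b1 (-1.17 ± 0.15), the carrier of endosomal Toll-like receptors such as Tlr13, with a median of -1.13 beside 0.07 for all genes. Among the other C-type lectins 3 of 7 were higher and 4 lower, with Clec5a at 1.73 ± 0.20, Clec4a3 at -3.38 ± 0.16 and Clec4a1 at -3.50 ± 0.19, and on library totals 1 was higher and 5 lower, with a median of -0.97 that went to -1.68. The formyl-peptide receptor coupling genes had 7 of 9 higher with TMM, with Rac2 at 1.69 ± 0.10, Arrb2 at 2.36 ± 0.15 and Gnai3 at 1.45 ± 0.22, but 4 higher and 2 lower on library totals, and a median of 1.17 and 0.43.

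The ITAM adaptors and kinases turned with the scaling in the comparison with monocyte-like cells, from 6 of 10 higher and none lower (median 0.52) to none higher and 3 lower (median -0.21). So did the Toll-like receptor adaptors and signal genes, from 5 of 19 higher and 1 lower (median 0.39) to 2 higher and 7 lower (median -0.35), with Nfkbiz at 1.84 ± 0.17, Tirap at 2.47 ± 0.34 and Ikbkb at -1.21 ± 0.18 by TMM. Of the 11 cytosolic sensors and inflammasome genes 3 were higher and 4 lower, with Nod1 at 2.20 ± 0.28, Pycard at -1.24 ± 0.12 and Tmem173 at -1.27 ± 0.28. On library totals 1 of these was higher and 6 lower, and the median went from -0.75 to -1.51. Of 3 other Toll-like receptors tested, with a median of 0.47 that was -0.28 on library totals, 1 was called as higher. This was Tlr5, which had 0 UMIs in monocyte-like cells and 26 in neutrophil-like cells, so it passed the filter on low counts only through the neutrophil-like cells, and its call is no support for a difference of the list.

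Against border macrophage-like cells 74 were tested, with 31 higher and 20 lower by TMM and 12 and 29 on library totals. With TMM 22.7% of all genes were called as higher and 20.2% as lower. Trem3 (5.26 ± 0.20) and Pglyrp1 (4.09 ± 0.14) were higher, whereas Trem2 (-2.50 ± 0.20), a receptor of resident macrophages, was lower, and 4 of the 5 genes of that list were called as higher, with a median of 4.09 beside 0.04 for all genes. All 7 chaperones and co-receptors were called, 6 as lower, led by Ly86 (-3.99 ± 0.19), with a median of -1.47. Of the ITAM adaptors and kinases 8 of 10 were higher and none lower, with Syk at 1.65 ± 0.21 and Tyrobp at 1.17 ± 0.11, a list with 2 higher and none lower on library totals, and a median of 0.98 and 0.23. The other C-type lectins had 2 of 7 higher and 4 lower, with Clec10a at -3.61 ± 0.36 and a median of -2.35, and on library totals none was higher and 5 were lower, with a median of -3.12.

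The formyl-peptide receptor coupling genes had 8 of 10 higher and 1 lower against border macrophage-like cells, and 4 and 2 on library totals, with Rac2 at 2.41 ± 0.15 and a median of 1.14. Of the Toll-like receptor adaptors and signal genes 5 of 19 were higher and 2 lower, but none was higher and 5 were lower on library totals, where the median went from 0.37 to -0.39. The cytosolic sensors and inflammasome genes had 2 of 12 higher and 4 lower, with Nod1 at 3.59 ± 0.41 and the DNA sensor Mb21d1 at -3.09 ± 0.55. On library totals 1 was higher and 8 lower, with a median of -0.26 that went to -1.03. Nod1 had 251 of its 258 UMIs in neutrophil-like cells and passed the filter of 20 UMIs only through them. Mb21d1, with 40 UMIs and a mean of 1.4 CPM in neutrophil-like cells, passed only through border macrophage-like cells. Neither call is used as support. Of the 4 other Toll-like receptors tested 2 were lower, Tlr7 at -1.38 ± 0.34 and Tlr1 at -2.02 ± 0.64, with a median of -0.43 that was -1.19 on library totals. Tlr1 had 30 UMIs over both classes and averaged 1.4 CPM in neutrophil-like cells, so its call is not used as support. The 1 called as higher, Tlr6, had 0 UMIs in border macrophage-like cells and 20 in neutrophil-like cells, passed the filter only through the latter and was not called on library totals.

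In CSD against HC neutrophil-like cells 67 of these genes were tested, and 3 were called as higher and 3 as lower, where 1.23% of all genes were called as higher and 2.01% as lower. The granule gene Pglyrp1 (0.55 ± 0.15), the GTPase Rac2 (0.50 ± 0.15) and the inflammasome adaptor Pycard (0.61 ± 0.18) were higher, and none of these 3 was called on library totals. Trem2 (-1.31 ± 0.22), Clec4b1 (-1.91 ± 0.44) and the NF-κB inhibitor Tnfaip3 (-1.57 ± 0.50) were lower, and library totals gave 3 lower calls as well. The border macrophage markers in mature neutrophil-like cells ran from 3940 CPM in HC replicate 1 to 1115 CPM in CSD replicate 1 in the order in which Trem2 was lower, and their part in that result was not tested. Medians of the 8 lists ran from -0.32 for the other C-type lectins to 0.44 for the formyl-peptide receptor coupling genes, beside -0.02 for all genes, and on library totals from -0.53 to 0.22 beside -0.24. In monocyte-like cells none of the 53 tested was called.

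Across the 14 classes in 3 libraries (42 points, log2 of CPM + 10) the pattern of each receptor gene was set beside those of 7352 genes with at least 200 UMIs. The points of a library share its free RNA and depth, so these correlations are descriptions. Fpr1 was most like Retnlg (Pearson's r = 0.93) and Trem1 most like Cxcr2 (0.90), the chemokine receptor of mature neutrophils, whereas Fpr2 was most like 9830107B12Rik (0.92) and S100a9 (0.91). Clec4d was most like Arg2 (0.89), Clec4e most like S100a11 (0.90) and Clec4n most like the mannose receptor gene Mrc1 (0.85). Cd14 and Tlr13 shared Fcgr3 among their nearest genes (0.91 and 0.84), Tlr2 was nearest to Lrrc25 (0.92), and Tlr4, the sparsest, to Rin2 (0.77).

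Among the receptor genes themselves, Clec4e and Trem1 had the highest correlation (0.84), followed by Fpr2 and Trem1 (0.84). Clec4d with Clec4e gave 0.79, whereas Clec4d with its other neighbor Clec4n gave 0.11. Tlr2 with Cd14 gave 0.83.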

How the data were processed

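The deposited file holds whole-number UMI counts for every barcode of the 3 libraries, made by the authors with Cell Ranger (version 2, mm10, per the processing notes), with no cells called and no normalization. The suffix of a barcode was read as the library number given in the labels. Barcodes with at least 500 UMIs, 174 to 4548 genes and under 8.3% mitochondrial UMIs were kept. Doublets were marked with Scrublet (1.92%, 0.94% and, by rank of the score, 5.19% of cells) but kept, and leaving them out was an alternative. Size factors came from scran 1.30.0, mutual nearest neighbors joined the libraries, and Leiden clustering (scanpy 1.11.5, resolution 1) gave 26 clusters, on 7429 variable genes. A cluster was named where its own markers led it. The members, the lists and the named-gene rule (all 10 members, and up to 3 genes a list with the smallest adjusted p whose libraries did not overlap) were chosen with earlier results of these data known.

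Summed counts of genes with at least 20 UMIs were tested with edgeR 4.0.16 (quasi-likelihood, TMM, Benjamini-Hochberg), with DESeq2 1.42.0 as an alternative. The study had tested single cells with a Mann-Whitney test, but cells are not replicates. Each test was checked on simulated counts with set changes. For CSD against HC in neutrophil-like cells, edgeR recovered 78% of the 2-fold changes and DESeq2 39%. All simulated libraries were drawn from the same pooled profile with a fixed spread. The check therefore covers neither a different makeup of the classes nor the real spread between pools. Other alternatives were filters, cell limits, cluster settings, subtraction of the empty-droplet profile, and library totals without TMM scaling, which was chosen after seeing the data. Free RNA was estimated from B cell genes at 27.0% to 32.0% of the neutrophil-like and 29.4% to 37.4% of the monocyte-like UMIs. A second CSD pool was lost before sequencing, according to the study's methods.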

Additional observations from a re-analysis of the deposited data

Results flagged for a closer look

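The RNA in empty droplets lay outside the main comparisons and entered them as an alternative, in which its profile was subtracted. It held more of 5 receptor genes in the CSD library than in either HC library. The share of all genes that did so in empty droplets was not counted, so this is not read as a trait of the receptor genes. Clec4d was at 89.4 CPM in CSD replicate 1, against 51.4 and 71.0 in HC replicates 1 and 2. Clec4e was at 109 CPM (against 56.5 and 69.1), Fpr1 at 69.7 (against 21.8 and 41.8), Fpr2 at 87.6 (against 54.0 and 70.0) and Trem1 at 50.1 (against 28.3 and 49.8). These values rest on 50, 61, 39, 49 and 28 UMIs in the CSD library, and Trem1 was level with HC replicate 2.

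Tlr13 had ratios of opposite sign in 2 cell types, neither of which passed the test of CSD against HC. The log2 ratio of its CPM in CSD replicate 1 to the mean of the HC libraries was -0.24 in neutrophil-like cells, where CSD was below both HC libraries, and 0.45 in monocyte-like cells, where it was above both. The difference between the cell types was -0.69 and was not tested. In edgeR with TMM scaling the log2 fold changes were -0.05 ± 0.28 and 0.47 ± 0.38 (SE), and on library totals the median of all genes in neutrophil-like cells was -0.24.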

How the results depend on the processing

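No paired analysis was possible for CSD against HC because the labels pair no HC pool with the CSD pool. In the class comparisons the library was a block. Without it 915 genes instead of 1853 were called between mature and immature cells, and 7 receptor genes instead of 8. Against monocyte-like and border macrophage-like cells 5 and 8 receptor genes were called without it, instead of 6 and 9.

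For CSD against HC in neutrophil-like cells, 256 genes and 1 receptor gene (Fpr1) were called. There were 0 receptor genes called with DESeq2 (21 genes over all), genes seen in more than 15% of cells (23), Scrublet doublets left out (0), cells of at least 1000 UMIs, the empty-droplet profile subtracted (0), mature cells only (122), immature cells only (1) or library totals without TMM scaling. Cd14 turned to -0.0945 with the 15% filter, -0.0185 with 1000 UMIs, -0.0327 in immature cells and -0.17 without TMM, and Tlr13 to 0.0212 with no filter and 0.17 in mature cells. In monocyte-like cells 1 gene was called, against 2 with DESeq2, 33 with the 15% filter, 60 with no filter, 68 without doublets, 68 at 1000 UMIs, 62 at the 5% mitochondrial limit, 99 at resolution 2, 58 with no neighbor correction, 0 with the profile subtracted and 35 without TMM, but never a receptor gene.

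Between neutrophil-like and monocyte-like cells, 3914 genes became 2193 with DESeq2 and 2063 with the 15% filter, and without TMM Tlr13 (-0.22) and Cd14 (-0.31) turned. Against border macrophage-like cells, 3918 became 2272 and 1561, and 2597 to 3494 when 1 library was left out (fewest without HC replicate 1), and Tlr13 turned to -0.0776 without TMM. Between mature and immature cells, 1853 became 788 and 983, with 5 receptor genes passing the 15% filter and called instead of 8, and Fpr2 ran from -0.00399 without CSD replicate 1 to 0.105 without HC replicate 2. The causes were not tested.

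The mean share of neutrophil-like cells with a UMI grew with depth. From 500 UMIs to 1000 UMIs and to all UMIs it went from 13.4% to 20.7% and 34.4% for Clec4d, 9.50% to 16.4% and 30.3% for Clec4e, 5.85% to 12.0% and 22.3% for Fpr1, 11.1% to 23.3% and 41.4% for Fpr2, and 5.93% to 12.7% and 23.3% for Trem1. It went from 2.85% to 4.37% and 9.82% for Tlr2, 0.266% to 0.567% and 1.18% for Tlr4, 1.75% to 3.64% and 6.73% for Tlr13 and 4.66% to 7.58% and 16.9% for Cd14, and for Clec4n from 0.861% to 2.40% without thinning. Over all comparisons and alternatives, 535 of 581 values for single receptor genes were counted as the same. Where an adjusted p existed, this meant the same direction and the same side of the threshold. With an HC library left out, CSD against HC had no p-values, and it meant a fold change that moved by less than the SD of the HC libraries. An adjusted p missing in DESeq2 counted as the same where the direction held and the gene had not been called.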
